A study of Mus musculus with 12 samples.

Results

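The MYC/MAX network was taken as 10 genes, Myc, Mycn, Max, Mxd1, Mxd3, Mxd4, Mxi1, Mnt, Mlx and Mga, chosen by symbol from the 24454 genes of the deposited table, and all 10 were found. The values are of mouse acute myeloid leukemia blasts, which are fetal liver cells carrying a retrovirus that encodes the MLL-AF9 fusion oncogene and the fluorescent protein Venus. Their donors either had intact Stat3 (wildtype, WT) or lacked its β isoform (Δβ). Recipients were male NSG mice (NOD.Cg-Prkdc scid Il2rg tm1Wjl/SzJ), an immunodeficient strain, and Venus+ cells were sorted from their spleen (SP) and bone marrow (BM) once leukemia had developed. All groups carry MLL-AF9 and grew in hosts that lack mature lymphocytes but keep their own myeloid cells, so that WT stands for the genotype of the blasts and not for healthy tissue. There were 3 libraries in each of the 4 groups WT SP, Δβ SP, WT BM and Δβ BM, 12 in all. The sources used here do not say whether replicates are separate animals or separately transformed lines, so p-values measure the spread between these libraries, part of which may be technical.

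MYC and its relative MYCN are basic helix-loop-helix leucine zipper activators that bind E-box DNA as dimers with MAX, and drive growth, ribosome production and division. MXD1, MXI1, MXD3, MXD4 and MNT compete for MAX and, at the same E-boxes, recruit the SIN3 and histone deacetylase corepressor, and the switch from MYC:MAX to MXD1:MAX dimers is a classical step of myeloid differentiation. MLX is a MAX-like partner for the glucose-responsive MLXIP and MLXIPL proteins, and MGA joins MAX to a polycomb repressor complex. MYC is known to help keep MLL-AF9 blasts undifferentiated.

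Between 9001051 and 13859727 reads per library lay on genes, and 9 of the 10 members passed the filter of a mean normalized count of at least 10 over the 12 libraries, as did 11476 of all genes. A normalized count is a gene's read count divided by 1 size factor per library. Each of the 12 blast marker genes reached 3 reads in at least 1 library. By mean log2 level, 6 of the 12 were higher and 6 lower in Δβ SP than in WT SP. Mpo had 5947, 5256 and 40590 normalized counts in WT SP and 53210, 25770 and 30740 in Δβ SP. Itgam had 26290, 21980 and 10940 in WT SP and 8530, 7855 and 10470 in Δβ SP. Of the erythroid genes, the globin genes Hba-a1, Hba-a2, Hbb-bs and Hbb-bt stayed below 3 reads in every library, and Klf1, Alas2 and Epor reached at most 9.12, 9.61 and 5.84 normalized counts. Summed over their lists, macrophage genes reached 9257, lymphoid genes 802 and genes of endothelium and stroma 544 normalized counts in the highest library. The T cell genes Cd3d, Cd3e, Cd3g, Cd4 and Cd8a had 63.1, 48.9, 72.8, 40.2 and 103 in Δβ BM replicate 1. They had 10.9, 17.1, 20.9, 45.7 and 17.8 in Δβ SP replicate 1, and at most 11.1 in any other library. Where these transcripts come from was not tested. The summed level of 12 mature neutrophil genes was 147700 to 365100 normalized counts in WT SP and 149000 to 430400 in WT BM, and that of Δβ 99820 to 122000 in SP and 118500 to 247900 in BM. In bulk samples, fewer cells of a type and less RNA per cell cannot be told apart. Among the WT SP libraries, Pearson's r across genes was 0.9642 between replicates 1 and 2, 0.9425 between 2 and 3, and 0.897 between 1 and 3. The highest r with a library of another group was 0.9301 for WT SP replicate 1, 0.9775 for replicate 2 and 0.9626 for replicate 3. Replicate 3 was thus least like its own group, and replicate 1 least like the other groups. Stat3 itself was measured per gene, so the missing isoform cannot be seen, and lay at 2977 to 4430 (WT) and 2674 to 3236 (Δβ) normalized counts in SP, and at 2714 to 3201 (WT) and 2349 to 3228 (Δβ) in BM.

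The E-box that MYC:MAX and MXD:MAX dimers share is the palindrome CACGTG, and the network's own promoters were searched for it on both strands. RefSeq promoter sequences on GRCm38.p6 ran from 250 bases before a transcript start to 50 bases after it. They were given for 9 of the 10 members in 11 entries. Myc had no entry, so its promoter was not searched for any motif. The entries of Max, Mlx, Mnt and Mxd4 held the E-box. These are 4 of 11 member entries, and 7.15% of all 32851 promoter entries held it. The 30 bases around each E-box follow on the gene's own strand, with the E-box in capitals, because the proteins of the network are known to bind this motif.
Max, chr12:76962234-76962263, minus strand: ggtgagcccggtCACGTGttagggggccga
Mlx, chr11:101087238-101087267, plus strand: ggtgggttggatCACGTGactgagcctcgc
Mnt, chr11:74830789-74830818, plus strand: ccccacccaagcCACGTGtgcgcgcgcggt
Mxd4, chr5:34187912-34187941, minus strand: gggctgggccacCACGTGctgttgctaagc
Counted from the transcript start of the RefSeq entry, the E-box began at base -3 in Max, -40 in Mlx, -123 in Mnt and -219 in Mxd4. For Mlx, Mnt and Mxd4, bases after that start were found in GENCODE transcripts of the gene. For Max they were found on neither strand, so its strand and start rest on the promoter entry alone. The Mga promoter held the related letters CACGCG on the other strand at base -21, as did 9.27% of all entries. None of the member entries held the STAT-type letters TTCNNNGAA, found in 8.30% of all entries, or the AP-1 letters TGACTCA, found in 5.20%. Whether any protein binds these letters in blasts was not measured.

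Levels between genes were compared per length, as the normalized count per kb of RefSeq transcript averaged over the 12 libraries. Mxi1 stood highest at 894 normalized counts per kb, followed by Max at 591, Myc at 498, Mlx at 425, Mxd1 at 277, Mnt at 180, Mxd3 at 167, Mxd4 at 98.5 and Mga at 96.4. The ranges of each pair of neighbours in this order overlapped over the 12 libraries, for example Mxi1 at 659 to 1095 and Max at 452 to 774 normalized counts per kb. On this length Mxd3, at its lowest 125, and Mga, at its highest 122, did not overlap. With the union of all annotated exons as the length, Myc came first at 429 per kb, then Mlx at 418, Max at 319 and Mxi1 at 307. At the lower end, Mxd3 stood at 93.4, Mga at 87.6 and Mxd4 at 44.9. The order at both ends thus depends on which transcripts are made, and overlap of libraries was read on the RefSeq length only.

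**Figure D1:**
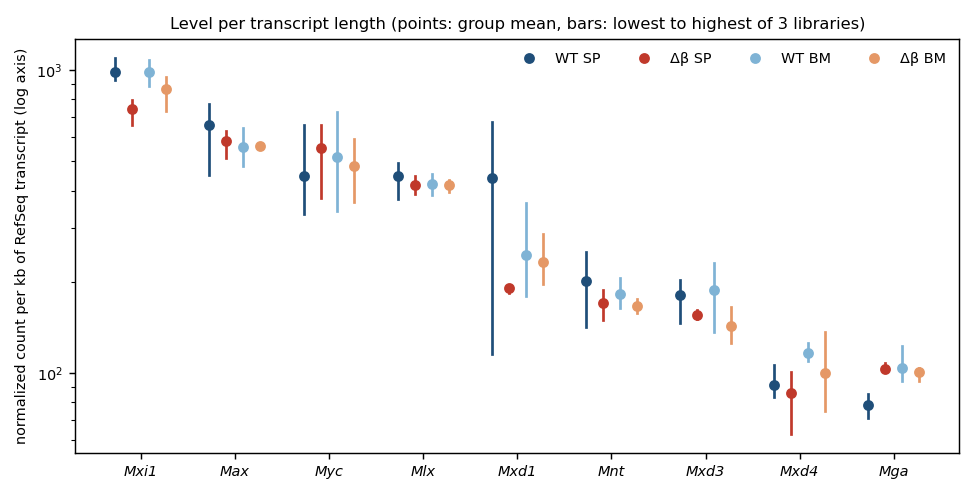
Normalized count per kb of RefSeq transcript (log axis) of 9 members in the 4 groups; points are group means of 3 libraries and bars run from the lowest to the highest library. Mxi1 and Max lie at the top, Mxd4 and Mga at the bottom near 100 per kb, and the bar of Mxd1 in WT SP, from 115 to 672, is the longest.

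Mycn, the MYC relative of neural and early progenitor cells, was at background. It had normalized counts of 2.28, 1.06 and 2.03 in WT SP, 0.775, 0 and 2.14 in Δβ SP, 0 in each WT BM library, and 3.26, 0 and 0 in Δβ BM. It reached 3 reads in Δβ BM replicate 1 and had fewer in the other libraries, and it was not tested.

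Between Δβ and WT blasts of the SP, 0 of the 9 members tested passed an adjusted p of 0.05 (limma with Benjamini-Hochberg adjustment), where 12 of 11476 genes did, or 0.105%. Without adjustment 2 members lay under 0.05, Mga and Mxi1, beside 14.9% of all genes. The same 2 members were the ones whose WT and Δβ libraries did not overlap in the SP, against 17.3% of all genes, so their share of 9 is near that of the table as a whole. edgeR called 0 members and DESeq2 called 1, Mga.

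**Figure D2:**
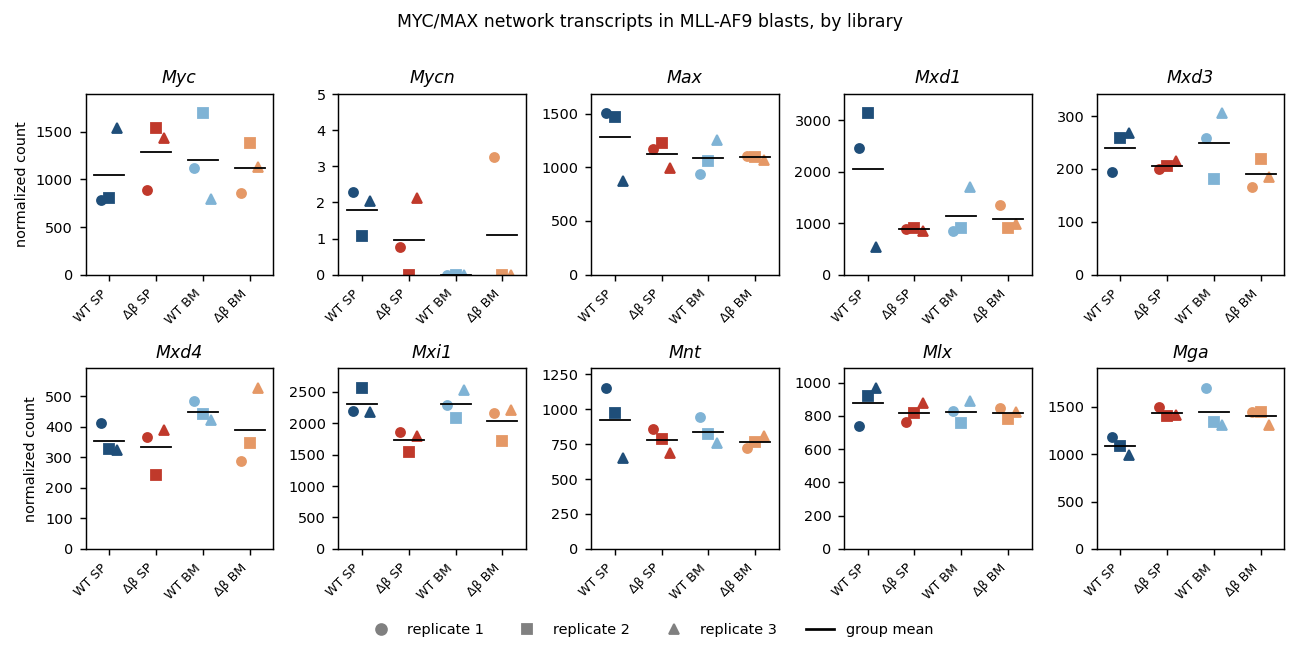
Normalized counts of the 10 members in each of the 12 libraries, by group; symbols mark replicates 1 to 3, horizontal lines are group means, and each vertical axis starts at 0. Mga separates WT SP from Δβ SP upwards and Mxi1 downwards, and Mxd1 is high in replicates 1 and 2 of WT SP and low in replicate 3.

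Mga, the scaffold of the MAX-containing polycomb complex, had normalized counts of 1186, 1083 and 990.5 in replicates 1, 2 and 3 of WT SP, and of 1500.5, 1399 and 1412 in Δβ SP. The 3 Δβ SP libraries lay above the 3 WT SP libraries. The log2 fold change was 0.41 (SE 0.12, 95% interval 0.14 to 0.67), with an adjusted p of 0.221 from limma. DESeq2 on the recovered reads gave 0.43 with an adjusted p of 0.0331, and called 3.98% of all genes in this comparison. Over the 12 libraries Mga had an r of -0.70 with the mean deviation of 19 immediate early genes (rho -0.75), and the part of these genes in its difference was not tested. Mga (chromosome 2, 119897228 to 119969581, plus strand) has the longest RefSeq transcript of the members, of 13931 bases in 24 exons.

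Mxi1, an MXD-family repressor and antagonist of MYC, went the other way. Its normalized counts were 2189, 2563 and 2177 in WT SP and 1866, 1541 and 1797 in Δβ SP, so that each Δβ SP library lay below each WT SP library. The log2 fold change was -0.41 (SE 0.13, 95% interval -0.71 to -0.12, adjusted p = 0.241 from limma). It was -0.39 with DESeq2 (adjusted p = 0.0824). In the BM, Mxi1 had 2290.1, 2078 and 2532 normalized counts in WT and 2153, 1711 and 2216 in Δβ, with overlap between the genotypes. Its r over the 12 libraries was 0.60 with the mature neutrophil genes and 0.51 with the immediate early genes, and their part was not tested.

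Mxd1, the repressor that replaces MYC on MAX when myeloid cells mature, spread widely among WT libraries, with a coefficient of variation of 65.9% in WT SP and 41.9% in WT BM against 2.91% in Δβ SP and 21.4% in Δβ BM. Replicates 1 and 2 of WT SP had 2471 and 3134 normalized counts and WT SP replicate 3 had 538, while the Δβ SP libraries had 896, 906 and 857. The 3 Δβ SP libraries thus lay between the WT SP libraries, and the WT SP standard deviation was 1349 around a mean of 2048 (n = 3). Its genotype difference in SP, as a log2 fold change, was -0.86 (SE 0.54, 95% interval -2.04 to 0.32, adjusted p = 0.445 from limma). It was -1.65 without WT SP replicate 3 (SE 0.28, adjusted p = 0.0103 from limma), and in that fit 16.4% of all genes were called, against 0.105% with all libraries. Without WT SP replicate 1 it was -0.55, and without WT SP replicate 2 -0.38. In the BM, Mxd1 had 839, 900.1 and 1701 normalized counts in WT and 1346, 915 and 984 in Δβ, with a log2 fold change of -0.03 (SE 0.54, adjusted p = 1 from limma).

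The 12 mature neutrophil genes broadly moved with Mxd1 from library to library, less closely among the BM libraries with lower Mxd1. Their mean log2 deviation from the mean of the 12 libraries was 0.94 and 1.52 in replicates 1 and 2 of WT SP and -0.85 in replicate 3, and -0.95, -0.49 and -0.92 in the Δβ SP libraries. It was 1.49 in WT BM replicate 3, where Mxd1 was highest among BM libraries, and 0.49 in Δβ BM replicate 1, the second highest. In WT BM replicates 1 and 2 it was -0.16 and -0.29, with Mxd1 at 839 and 900.1 normalized counts. In Δβ BM replicates 2 and 3 it was 0.09 and -0.87, with Mxd1 at 915 and 984. Over the 12 libraries Pearson's r between Mxd1 and this list was 0.87 (Spearman's rho 0.74), and it was 0.80 over the 10 libraries other than replicates 1 and 2 of WT SP. Libraries of a group share genotype, organ and, perhaps, host, so the r is a description. The part of mature cells in the Mxd1 levels was not tested.

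Myc had 782, 805 and 1538 normalized counts in replicates 1, 2 and 3 of WT SP, and 886, 1546 and 1440.2 in Δβ SP. WT SP replicate 3 was high where the other WT SP libraries were low, and Δβ SP replicate 1 was low where the other Δβ SP libraries were high, so the genotypes overlapped. The log2 fold change was 0.34 (SE 0.34, 95% interval -0.41 to 1.09, adjusted p = 0.620 from limma). The value was 0.66 (SE 0.32, adjusted p = 0.175) when WT SP replicate 3 was left out, 0.17 without replicate 1 and 0.19 without replicate 2. The mature neutrophil genes had an r of -0.68 with Myc over the 12 libraries. In the BM, Myc had 1117, 1694 and 799.6 normalized counts in WT and 859, 1383 and 1131 in Δβ, with a log2 fold change of -0.06 (SE 0.34, adjusted p = 1). Myc lies on the plus strand of chromosome 15 from 61985391 to 61990374 (GRCm38), in 3 exons of the RefSeq transcript.

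Max, the shared partner, had 1503, 1470.0 and 877 normalized counts in WT SP and 1172, 1223 and 992 in Δβ SP, and WT SP replicate 3 was again the low library. Its log2 fold change in SP was -0.15 (SE 0.20, 95% interval -0.58 to 0.28, adjusted p = 0.711 from limma). It was -0.40 (SE 0.13, adjusted p = 0.0656) with WT SP replicate 3 left out, -0.014 without replicate 1 and -0.030 without replicate 2. In the BM it had 936, 1062 and 1255 in WT and 1110.0, 1098 and 1073 in Δβ, with overlap. Mnt, the broadly expressed MAX-binding repressor, had 1153, 975 and 648 normalized counts in WT SP and 860.3, 787 and 686 in Δβ SP, with a log2 fold change of -0.22 (SE 0.19, adjusted p = 0.569). Without WT SP replicate 3, that of Mnt was -0.45 (adjusted p = 0.0492 from limma), again in the fit that called 16.4% of all genes, whereas it was -0.038 without replicate 1 and -0.16 without replicate 2.

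The libraries of the other members overlapped between genotypes in the SP. Mxd3, an MXD-family gene expressed in dividing cells, had 194, 259 and 268 normalized counts in WT SP and 199, 205 and 215 in Δβ SP (log2 fold change -0.20, 95% interval -0.66 to 0.25). Mxd4, its relative, ranged from 323 to 411 in WT SP and from 243 to 389.7 in Δβ SP (log2 fold change -0.11, 95% interval -0.63 to 0.41). Mlx ranged from 739.6 to 970.2 in WT SP and from 767 to 876 in Δβ SP (log2 fold change -0.09, 95% interval -0.36 to 0.18). Mlx lies 148 kb from Stat3 on chromosome 11, and 385 bases of its exons overlap Psmc3ip on the opposite strand. Psmc3ip was counted at 164 to 387 normalized counts, and since no source used here says whether counting used strand, reads in this overlap may belong to either gene. A shorter antisense overlap, of 105 bases, joins Mxd3 to Prelid1.

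In the BM, 0 of the 9 members passed the adjusted threshold between Δβ and WT (limma), where 0.0697% of all genes did, and 0 lay under an unadjusted p of 0.05. edgeR and DESeq2 called 0 members too. The WT and Δβ libraries of every member overlapped in the BM, whereas 7.63% of all genes were without overlap. The largest member difference was that of Mxd3, with 259, 181 and 305 normalized counts in WT BM and 166, 219.6 and 184 in Δβ BM, a log2 fold change of -0.36 (SE 0.21, 95% interval -0.82 to 0.09, adjusted p = 1). Mga, apart in the SP, had 1702, 1336 and 1311 normalized counts in WT BM and 1441, 1446 and 1311 in Δβ BM, a log2 fold change of -0.04 (95% interval -0.31 to 0.22).

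**Figure D3:**
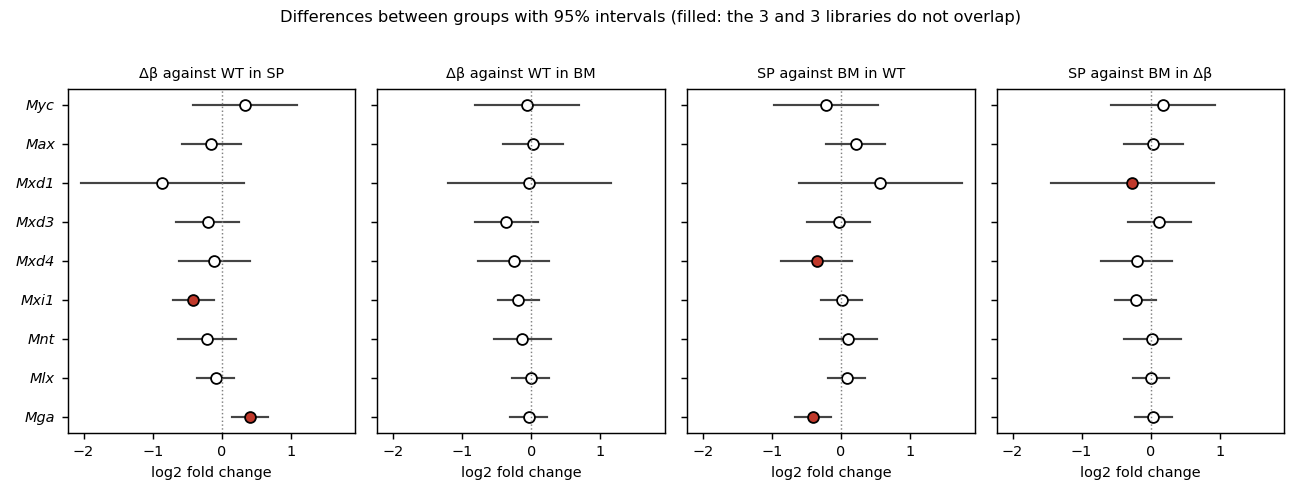
Log2 fold changes (points) with 95% intervals from limma (lines) for 9 members in 4 comparisons; filled points mark members whose 3 and 3 libraries do not overlap. Mga and Mxi1 are filled for genotype in SP, none for genotype in BM, and Mxd1 has the widest interval in each panel.

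With SP and BM libraries of equal genotype and number averaged, 0 of 9 members passed the adjusted threshold for genotype (limma), where 0.148% of all genes did. Same-numbered libraries did not deviate together in WT, so the spread and overlap of these averages depend on the numbering. Of the members 1, Mxi1, lay under an unadjusted p of 0.05, with a log2 fold change of -0.30 (SE 0.11, adjusted p = 0.442). edgeR and DESeq2 called 0 members. Mxi1 and Mxd3 were without overlap in these averages, both lower in Δβ, against 15.6% of all genes. In all, 7 of the members had a log2 fold change below 0 here, and Myc and Mga had values above 0, of 0.14 and 0.18.

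Between SP and BM of the same genotype, 0 of 9 members passed in WT and 0 in Δβ (limma), where 0% of all genes did in either. In WT, 1 member, Mga, had an unadjusted p under 0.05, and in Δβ 0 members did. DESeq2 and edgeR called 0 members in both. Mga was lower in WT SP than in WT BM without overlap, with a log2 fold change of -0.41 (SE 0.12, adjusted p = 0.580), while in Δβ it was 0.04 (95% interval -0.22 to 0.30). Mxd4 was the other member without overlap in WT, at 323 to 411 normalized counts in SP and 423 to 486 in BM (log2 fold change -0.35, adjusted p = 0.679). These are 2 of 9 members where 11.5% of all genes were without overlap in WT. In Δβ, Mxd1 was without overlap, at 857 to 906 in SP and 915 to 1346 in BM (log2 fold change -0.27, adjusted p = 1), where 7.42% of all genes were. Without WT SP replicate 3, Mxd1 was higher in WT SP than in WT BM by a log2 fold change of 1.35 (adjusted p = 0.0293 from limma), and 5.21% of all genes were called. Max had a log2 fold change of 0.21 between SP and BM in WT with all libraries and of 0.47 (adjusted p = 0.0685) in that fit.

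Same-numbered SP and BM libraries deviated together in Δβ, so the members were also read within these pairs, a reading added after the values were seen. Mxi1 was lower in SP in 3 of 3 pairs, at 1866 against 2153, 1541 against 1711 and 1797 against 2216 normalized counts. Myc was higher in SP in 3 of 3, at 886 against 859, 1546 against 1383 and 1440.2 against 1131, and Mxd1 was lower in 3 of 3. Of all genes, 34.4% had 1 direction in 3 of 3 pairs, and 3 of the 9 members did. With the pair as a replicate block in limma, the log2 fold change was -0.22 (SE 0.13) for Mxi1, 0.18 (SE 0.34) for Myc and -0.27 (SE 0.61) for Mxd1, each with an adjusted p of 1. That fit pools its spread over the Δβ and the WT pairs, and the WT pairs did not deviate together. These SEs are therefore not the spread of the Δβ pairs alone, against which the pair readings were not tested.

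The genotype difference of Mga was larger in SP than in BM by 0.45 on the log2 scale (SE 0.17, 95% interval 0.08 to 0.82). This difference between organs had an unadjusted p of 0.0225 and an adjusted p of 0.926 from limma, and 0 members and 0 of all genes passed, with edgeR and DESeq2 calling 0 members. The comparisons of Δβ with WT in SP and of SP with BM in WT share the WT SP libraries, in which Mga was lowest, so the Mga values of both are not independent. For Mxd1 the difference between organs was -0.83 (SE 0.76, adjusted p = 0.926).

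Myc and Mxd1 ran in opposite directions across libraries. There were 3.16 and 3.89 normalized counts of Mxd1 for each of Myc in replicates 1 and 2 of WT SP, and 0.350 in WT SP replicate 3. The Δβ SP libraries had ratios of 1.01, 0.586 and 0.595. In the BM, WT libraries had 0.751, 0.531 and 2.13 and Δβ libraries 1.57, 0.661 and 0.870. The 3 libraries with the highest ratios were thus WT, as was the one with the lowest, and the genotypes overlapped in both organs. Pearson's r of Myc with Mxd1 on the log2 scale was -0.77 over 12 libraries (Spearman's rho -0.68), and -0.70 without replicates 1 and 2 of WT SP. Max followed Mxd1 (r = 0.90, rho 0.85) and ran against Myc (r = -0.65, rho -0.66). Without replicates 1 and 2 of WT SP these values were 0.75 and -0.44. All pairs of members are read in the same 12 libraries and share their scaling.

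**Figure D4:**
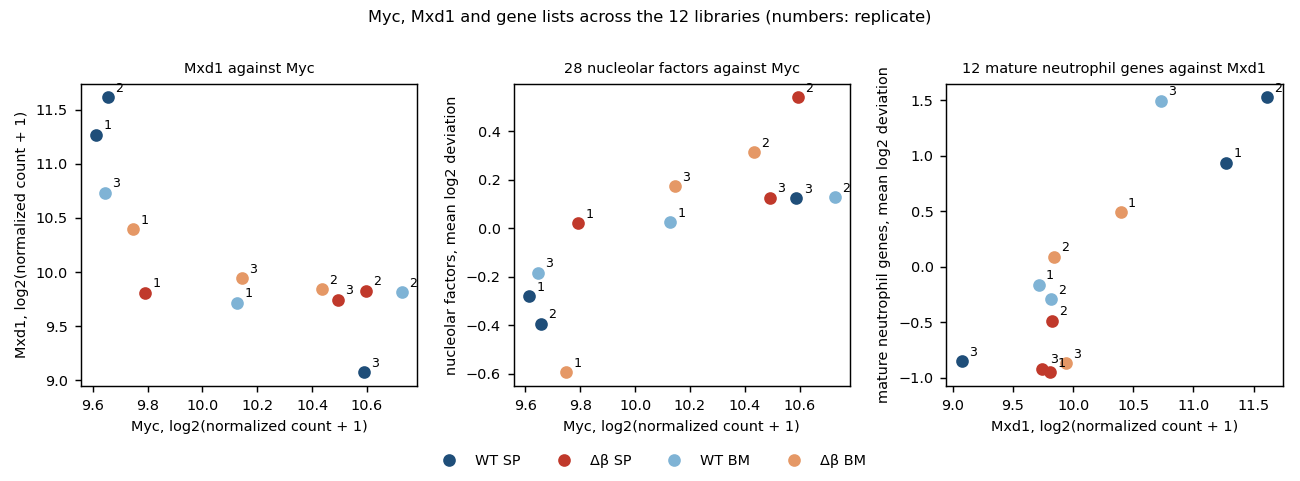
Each point is 1 of the 12 libraries, coloured by group and numbered by replicate; axes are log2(normalized count + 1) of Myc or Mxd1, and the mean log2 deviation of a gene list from its mean over the libraries. Mxd1 falls as Myc goes up (r = -0.77), nucleolar factors go up with Myc (r = 0.79) and mature neutrophil genes with Mxd1 (r = 0.87).

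Among the 11476 genes, those most like Myc over the 12 libraries were Glis3 (r = 0.92), Taf5 (0.91), Wdr43 (0.90), Kdelc1 (0.90) and Bola3 (0.90). Wdr43 encodes a nucleolar factor of small ribosomal subunit assembly. It had 947 and 898 normalized counts in replicates 1 and 2 of WT SP and 1363 in replicate 3, the same split as Myc. Those least like Myc were Gab3 (r = -0.91), Atp6v0a1 (-0.91) and Fgd6 (-0.90). For Mxd1 the most alike were A530064D06Rik (r = 0.98), Timp2 (0.97), Itprip (0.95), Rnf11 (0.95) and Grina (0.95). Timp2, an inhibitor of matrix metalloproteinases, had 661 and 925 normalized counts in replicates 1 and 2 of WT SP and 109 in replicate 3. The least alike were Retsat (-0.95), Ubqln4 (-0.94) and Ganab (-0.94).

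Genes that MYC is known to activate were tested as 2 lists. Of 28 nucleolar factors, 28 had a log2 fold change above 0 in Δβ SP, with a median of 0.39, where 5520 of the 11476 genes did, with a median of -0.01. None was called (0 of 28 with limma, edgeR and DESeq2), 5 had an unadjusted p under 0.05 (14.9% of all genes did), and 6 were without overlap (17.3% of all genes). Wdr12, a subunit of the PeBoW complex of large ribosomal subunit assembly, had 375, 401 and 712 normalized counts in WT SP and 625, 932 and 729 in Δβ SP (log2 fold change 0.66, adjusted p = 0.330). Gnl3, which encodes nucleostemin, had 640.5, 529 and 904 in WT SP and 849, 1458 and 951 in Δβ SP (log2 fold change 0.65, adjusted p = 0.324). For both genes WT SP replicate 3 lay within the Δβ range. In the BM, 16 of the 28 lay above 0, with a median of 0.01. Over the 12 libraries the list's mean deviation had an r of 0.79 with Myc (rho 0.80), and of 0.72 without replicates 1 and 2 of WT SP.

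Of 36 other MYC-activated targets tested, 30 lay above 0 in Δβ SP, with a median of 0.32, and 22 in Δβ BM, with a median of 0.03. None was called by limma in either organ, and 7 were higher and 1 lower at an unadjusted p under 0.05 in SP, beside 14.9% of all genes. The higher ones include Hspe1, the mitochondrial co-chaperone, with 172, 136 and 188 normalized counts in WT SP and 219, 329 and 242 in Δβ SP (log2 fold change 0.66, adjusted p = 0.254). The lower one was Id2, an inhibitor of basic helix-loop-helix factors, with 4269, 2141 and 724 normalized counts in WT SP and 442.5, 439 and 585 in Δβ SP (log2 fold change -1.95, adjusted p = 0.205). Without WT SP replicate 1 the median of the list in SP was 0.24, without replicate 2 it was 0.21 and without replicate 3 it was 0.52. Leaving out WT SP replicate 3, 9 of the 36 were called higher and 1 lower, and 4 of the 28 nucleolar factors higher, beside 16.4% of all genes.

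Of 15 genes that MYC is known to repress, 15 had a log2 fold change below 0 in Δβ SP, with a median of -1.21. None was called by limma, 11 had an unadjusted p under 0.05 (14.9% of all genes) and 9 were without overlap (17.3%), and DESeq2 called 6, where it called 3.98% of all genes. Klf4, a Krüppel-like factor of monocyte differentiation, had 3884, 2592 and 848 normalized counts in WT SP and 705, 485 and 450.5 in Δβ SP (log2 fold change -1.93, SE 0.50, adjusted p = 0.218 from limma). Klf2, a factor of leukocyte quiescence, had 7203, 7729 and 3063 in WT SP and 1596, 1837 and 1358 in Δβ SP (log2 fold change -1.81, SE 0.72, adjusted p = 0.296). In the BM, 12 of the 15 lay below 0, with a median of -0.21. This list shares Btg2 with the list of immediate early genes, which are induced within minutes by stimulation or tissue handling. All 19 immediate early genes tested lay below 0 in Δβ SP, with a median of -1.80, and 10 of 19 in Δβ BM, with a median of -0.14. Their mean log2 deviation was 1.74, 1.24 and 0.67 in replicates 1, 2 and 3 of WT SP, and -0.93, 0.16 and -0.85 in Δβ SP. The MYC-repressed genes were at 1.04, 0.82 and 0.06 in WT SP and -0.28, -0.45 and -0.60 in Δβ SP. The order of their replicates was that of the immediate early genes in WT SP and differed from it in Δβ SP. The 12 mature neutrophil genes also lay below 0 in Δβ SP for 12 of 12, with a median of -1.12 (0 called and 3 at an unadjusted p under 0.05 with limma, 2 called by DESeq2), and for 8 of 12 in Δβ BM, with a median of -0.44. The part of both lists in the difference of the MYC-repressed genes was not tested. Mxd1 had an r of 0.82 with the MYC-repressed genes over the 12 libraries, and of 0.46 without replicates 1 and 2 of WT SP. Over both organs limma called 2 immediate early genes, Ier5 (log2 fold change -1.25, adjusted p = 0.0362) and Junb (-1.08, adjusted p = 0.0366), both lower in Δβ, beside 0.148% of all genes. That test averages SP and BM libraries of equal number, which did not deviate together in WT, so its spread depends on the numbering. In SP alone, the largest changes of this list at an unadjusted p under 0.05 were those of Nr4a1 and Dusp1. Their log2 fold changes were -2.60 (adjusted p = 0.270 from limma) and -2.57 (adjusted p = 0.225 from limma). Nr4a1 had 10520, 4801 and 507 normalized counts in WT SP and 430, 478 and 557 in Δβ SP, with overlap. Dusp1 had 17450, 12200 and 5558 in WT SP and 1636, 2592 and 1328 in Δβ SP, without overlap.

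**Figure D5:**
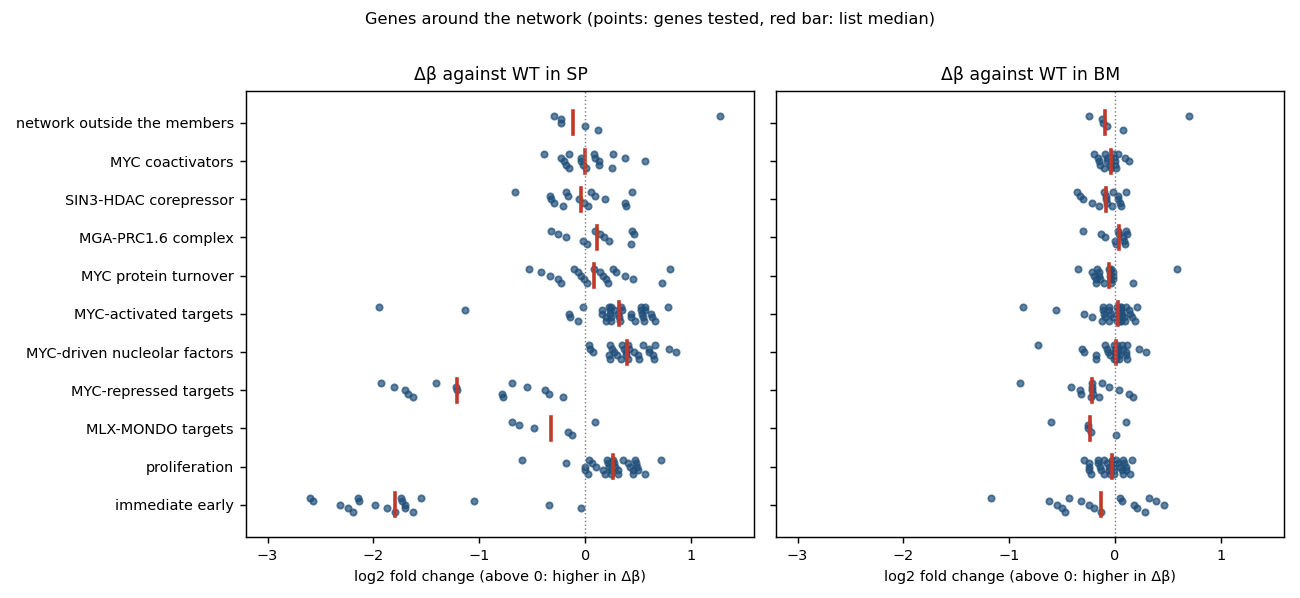
Log2 fold change of Δβ against WT of every tested gene (points) in 11 lists around the network, in SP (left) and BM (right), with list medians as red bars. In SP the nucleolar factors lie above 0 and the MYC-repressed and immediate early genes below it, with medians of 0.39, -1.21 and -1.80, and in BM these medians are 0.01, -0.21 and -0.14.

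Division genes lay above 0 for 29 of 31 in Δβ SP, with a median of 0.27, and for 11 of 31 in Δβ BM, with a median of -0.02. None was called by limma, and 7 had an unadjusted p under 0.05 in SP, beside 14.9% of all genes. Cdc6, which loads the replicative helicase, had 406, 660.3 and 749 normalized counts in WT SP and 961, 974.5 and 944 in Δβ SP, without overlap (log2 fold change 0.71, SE 0.20, adjusted p = 0.218). Mcm6, a subunit of that helicase, had 3439, 5343 and 7187 in WT SP and 7417, 7273 and 6872 in Δβ SP (log2 fold change 0.50, adjusted p = 0.330). WT SP replicate 1 was the low library for both. Without WT SP replicate 1, 19 of the 31 division genes lay above 0 in SP, with a median of 0.06. Leaving out WT SP replicate 3, 13 were called higher and 1 lower, beside 16.4% of all genes.

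Genes whose proteins work with the network on chromatin were read as 3 lists. The 18 MYC coactivators tested had 9 genes above and 9 below 0 in Δβ SP, with a median of 0.00, and 0 had an unadjusted p under 0.05. Of 16 genes of the SIN3 and histone deacetylase corepressor, 7 lay above and 9 below 0, with a median of -0.03. Sap30, one of its subunits, had 582, 414 and 347 normalized counts in WT SP and 308, 280.0 and 244.5 in Δβ SP, without overlap (log2 fold change -0.66, SE 0.19, adjusted p = 0.218). Hdac2, its deacetylase, had 959.6, 1180 and 1721 in WT SP and 1559, 1855 and 1676 in Δβ SP (log2 fold change 0.44, adjusted p = 0.313). Of 12 partners of MGA in its polycomb complex, which share Hdac1 and Hdac2 with the corepressor list, 8 lay above 0 in SP, with a median of 0.12, and 0 were called.

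Of 21 genes that act on MYC protein turnover, 12 lay above 0 in Δβ SP, with a median of 0.08, and 2 in Δβ BM, with a median of -0.05. Skp2, a ubiquitin ligase subunit that targets MYC, had 174, 248 and 241.5 normalized counts in WT SP and 358, 359.6 and 432 in Δβ SP, without overlap (log2 fold change 0.80, SE 0.21, adjusted p = 0.218). Trim32, another ligase, had 31.9, 53.0 and 54.8 in WT SP and 60.5, 76.2 and 94.0 in Δβ SP (log2 fold change 0.73, adjusted p = 0.309). In WT BM, Skp2 lay at 580.5, 391 and 352.5 and in Δβ BM at 338, 376 and 468, with overlap. MYC protein was not measured in this table.

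Of 6 tested glucose-responsive targets of MLX and its partners, 5 lay below 0 in Δβ SP, with a median of -0.32, and 4 in Δβ BM, with a median of -0.24. Acaca, which encodes acetyl-CoA carboxylase of fatty acid synthesis, was lower without overlap in both organs. Its normalized counts were 302, 284 and 335 in WT SP, 193, 215 and 188 in Δβ SP, 342, 259 and 289 in WT BM, and 188, 199.7 and 194 in Δβ BM. The log2 fold changes were -0.62 (SE 0.14, adjusted p = 0.162) in SP and -0.60 (SE 0.14, adjusted p = 0.511) in BM, and over both organs -0.61 (SE 0.12, adjusted p = 0.187), none past the threshold in limma. Txnip, an inhibitor of glucose uptake that is also in the MYC-repressed list, had 4813, 3423 and 2488 in WT SP and 2455, 2052 and 1932 in Δβ SP (log2 fold change -0.69, adjusted p = 0.265). Of 6 tested network genes outside the members, such as Mlxip and Usf1, 4 lay below 0 in SP, with a median of -0.12, and 0 had an unadjusted p under 0.05.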

How the data were processed

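The authors deposited 1 table of normalized counts, in which the signal of a gene is its count over a size factor of the library. Per the labels, reads of poly-A enriched libraries were processed with FastQC, STAR, featureCounts and DESeq2 on GRCm38/mm10. Versions and the strand setting are not given in the sources used here. Values were whole multiples of 1 read (100% within a tolerance of 0.01), and reads were recovered from that step. The 6 columns that match no sample were not used.

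Groups follow the labels' genotype and organ. On log2(normalized count + 1), limma 3.58.1 under R 4.3.3 (lmFit and trended eBayes) fitted 4 group means to each of 11476 genes, those whose 12 libraries averaged 10 or more, and p-values were adjusted over all genes by Benjamini-Hochberg. Fold changes on this scale understate those of low genes. For both organs together, log2 values of SP and BM libraries with equal genotype and number were averaged, 3 against 3. Same-numbered SP and BM libraries deviated together in Δβ (r of 0.66, 0.61 and 0.63) and not in WT (-0.01, -0.04 and -0.24), and no label ties the numbers to animals.

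The members and gene lists were chosen with earlier results of these data known. All members are named, as are the 5 genes most and 3 least correlated with Myc and Mxd1. From each list other than the cell type markers, the genes past the threshold (at most 10) are named. So are the 2 largest changes of these lists in each organ at an unadjusted p under 0.05. Other genes named for a motif, overlap or marker list were not chosen by that rule. Alternatives were pseudocounts of 0.25 and 4, no filter, a minimum mean of 50, TMM and quantile rescaling, eBayes without trend, edgeR 4.0.16 and DESeq2 1.42.0 on reads, the compared libraries alone, a replicate block and each library left out. The procedure was tested on simulated data. Positions are those of GENCODE M21 on GRCm38, and promoters those of RefSeq on GRCm38.p6. A floor of 3 reads covers counting error only. Protein sequences were not used here.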

Additional observations from a re-analysis of the deposited data

How the results depend on the processing

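Of 1017 recomputed member fold changes, 971 kept their direction and their side of the threshold, 4 passed it and 42 changed direction, none of these past the threshold. DESeq2 called 1 member in SP by genotype, Mga, and no other alternative with all libraries called a member in any comparison. With a library left out, 0 to 2 members were called in SP by genotype and 0 to 1 in WT between SP and BM. These calls are Mxd1 and Mnt in the first case and Mxd1 in the second, and they came without WT SP replicate 3, when 1884 and 598 of all genes were called. Ranges with a library left out that span 0 follow, as log2 fold changes. By genotype in SP, Mxd4 ran from -0.24 to 0.10. By genotype in BM, Myc ran from -0.32 to 0.22, Max from -0.078 to 0.13, Mxd1 from -0.21 to 0.29, Mlx from -0.072 to 0.043 and Mga from -0.11 to 0.079. Over both organs, Myc ran from -0.015 to 0.36 and Mlx from -0.11 to 0.015. Between SP and BM in WT, Myc ran from -0.53 to 0.066, Mxd3 from -0.24 to 0.13, Mxi1 from -0.071 to 0.078 and Mnt from -0.071 to 0.34. In Δβ, Max ran from -0.021 to 0.13, Mxd4 from -0.39 to 0.043, Mnt from -0.053 to 0.11, Mlx from -0.045 to 0.052 and Mga from -0.0067 to 0.064. For the difference between organs, Mxd3 ran from -0.0066 to 0.37, Mxd4 from -0.039 to 0.39, Mnt from -0.32 to 0.094 and Mlx from -0.20 to 0.0004. With all libraries, quantile rescaling turned Mlx by genotype in BM to 0.0050 and Max over both organs to 0.0010. Mxi1 between SP and BM in WT, 0.0064 as reported, was -0.0079 with TMM, -0.10 with quantile rescaling, -0.0087 with edgeR and -0.0007 with DESeq2. The largest reported size among values that changed direction was 0.21. The cause of these changes was not tested. The replicate block left 0 members called in each comparison. Same-numbered WT and Δβ libraries had correlations of -0.17 to 0.20 in SP and -0.09 to 0.13 in BM, so for genotype the number is no pairing. List counts without single libraries, with other scalings and with edgeR and DESeq2 were added after the values were seen. Over all genes, limma called 12 in SP by genotype, edgeR 4 and DESeq2 457. Depth limits Mycn, which could not be compared at 0 to 3 reads. With 3 libraries a group, intervals of Myc and Mxd1 allow changes in either direction.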
